A study of Mus musculus with 8 samples.

Results

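Cytosolic ribosomal protein genes were examined in the livers of mice fed an amino acid-restricted diet. They were taken from the deposited table by gene symbol: Rpl, Rplp, Rps and Rpsa genes, without the Rps6k kinases and without rows whose symbol ends in -ps and a number, which are pseudogenes. Of 95 rows with such a symbol, 8 kinase rows and 4 pseudogene rows were left out, and 83 of the 11784 genes in the table remained. Of these 83 genes, 46 encode proteins of the large ribosomal subunit, 31 encode proteins of the small subunit, 5 are paralogs of such genes (Rpl22l1, Rpl7l1, Rpl36al, Rps27l and Rps4y2) and 1, Rps19bp1, encodes a protein that binds Rps19 and is not itself a ribosomal protein. The ribosomal proteins Fau and Rack1 (listed under its older symbol Gnb2l1) have symbols outside this pattern, and their values are given beside the others.

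The study asked which liver genes change when dietary protein is reduced. Male C57BL/6J mice aged 9 weeks were given an amino acid-defined diet, either the Control diet or the Low AA diet, in which fewer of the calories come from amino acids, and were killed after 4 months following an overnight fast of about 16 h. The labels name no transgene, deletion or drug in either group. Each of the 8 samples was the liver of 1 mouse, 4 mice per diet, and stranded libraries of poly(A) RNA were sequenced. The values are read counts that the authors had scaled between mice and rounded. They summed to between 27876664 and 30799385 per mouse, with a gene median between 433 and 449. In all lists of values below, the Low AA mice are in the order H1126, H828, H817, H1315 and the Control mice in the order F129, F2212, F7111, F2110.

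The ribosome is built from ribosomal RNA and about as many small, basic proteins as there are genes in this group, nearly all present in 1 copy per particle. The large subunit joins amino acids and the small subunit reads the messenger RNA. The genes are among the most highly transcribed of any cell, and their messages start with a pyrimidine tract, the 5′ terminal oligopyrimidine (TOP) motif, through which the amino acid-sensing kinase mTORC1 and the RNA-binding protein LARP1 set how well they are translated. The liver, which makes most plasma proteins, holds ribosomes in large number. Read counts of poly(A) RNA report the amount of message and not its translation.

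Hepatocyte markers were high in all 8 livers: the 9 in the table summed to between 2529996 and 2971810 scaled reads per mouse. Control mouse F2212 held 36587 scaled reads of Cela1, a pancreatic elastase, against 130 to 288 in the other 7 mice. Control mouse F7111 had the lowest value of 79 of the 83 ribosomal protein genes. The main results on the group are given without either mouse where they change.

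Every ribosomal protein gene had a higher mean log2 value on the Low AA diet, by an amount that was small and alike across the genes. On the scale log2(value + 1), the difference (Low AA minus Control) was positive for 83 of 83 genes, whereas 50.5% of all genes were positive. The median was 0.32, the interquartile range was 0.24 to 0.41, and the extremes were Rpl36 at 0.05 and Rps27 at 0.95. The median over all 11784 genes was 0.002. Of the 77 core subunit genes that the symbol reaches, 71 had a difference between 0.1 and 0.5.

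Few of these differences passed a test corrected for all genes. With limma and a Benjamini-Hochberg adjusted p under 0.05 over 11784 genes, 1 of the 83 genes was called higher (1.2%, against 0.102% of all genes) and 0 were called lower (0.297% of all genes). The gene called was Rpl22l1. At an unadjusted p under 0.05, 46 of the 83 genes (55.4%) were higher and 0 were lower, against 5.13% and 6.7% of all genes. In 26 genes (31.3%, against 3.26% of all genes) every Low AA mouse was above every Control mouse, and in 0 genes every Low AA mouse was below (3.55% of all genes). These 26 genes were 12 of the large subunit, 13 of the small subunit and 1 paralog. The other 57 genes had at least 1 Control mouse above the lowest Low AA mouse. In simulated data of the same 11784 genes and 8 mice, 0% of genes changed by 0.3 on the log2 scale were called, and 25% of those changed by 0.6. The median of the group, 0.32, lies near the smaller of these sizes. The simulation drew every gene independently and with the same dispersion, which was not estimated from the ribosomal protein genes. It therefore cannot tell how many of the 83 genes could have been called.

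**Figure D1:**
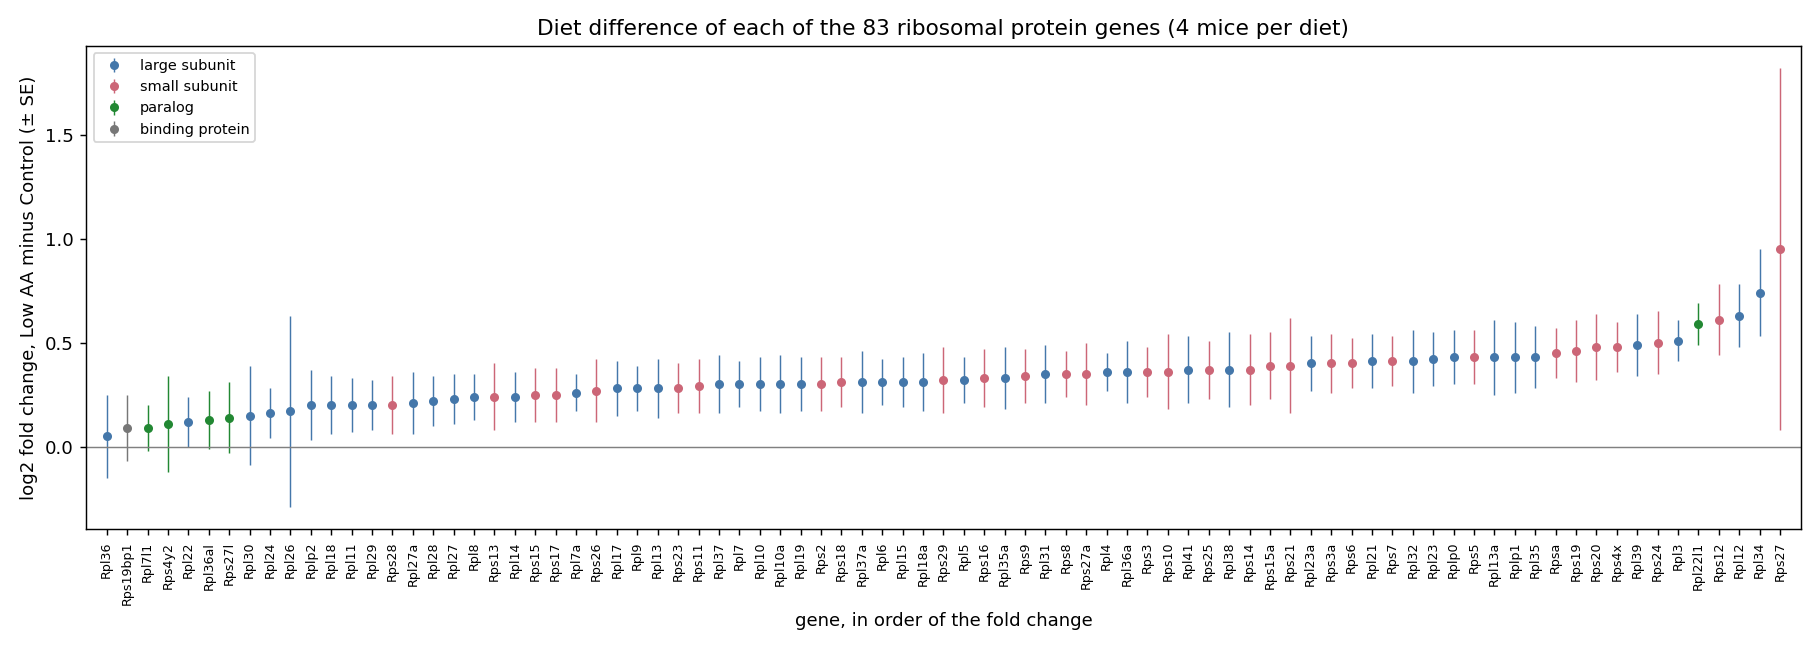
Difference in log2(value + 1) between Low AA and Control mice for each of the 83 genes, in rising order, with the standard error from limma (4 mice per diet). All 83 points lie above 0, from 0.05 (Rpl36) to 0.95 (Rps27), and the bar of Rps27 spans 0.87 to either side.

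The genes moved together from mouse to mouse as well as between the diets. The mean over the 83 genes of log2(value + 1), relative to each gene's own mean over the 8 mice, was 0.03, 0.22, 0.15 and 0.27 in the Low AA mice and 0.02, 0.04, -0.50 and -0.22 in the Control mice. The Low AA mean was 0.17 ± 0.10 and the Control mean -0.17 ± 0.25 (SD, n = 4 each). The Control mice were spread more widely than the Low AA mice, and Control mouse F2212 (0.04) was above Low AA mouse H1126 (0.03). The median correlation between 2 of the genes was 0.91 over the 8 mice, and 0.90 once each diet's mean had been removed. This is a description only, since all genes of a mouse share 1 library.

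The difference was smaller without Control mouse F7111. Over the other 7 mice the median was 0.21 and 78 of the 83 genes were positive. An unadjusted limma p under 0.05, in either direction, was seen in 28 of the 83, against 1570 of all 11784 genes. The 5 genes that turned negative were Rpl26, Rpl36, Rps19bp1, Rps27l and Rps4y2. All 26 genes whose diets did not overlap were above the other 3 Control mice by construction, and no further gene joined them. The highest value of a gene was in a Low AA mouse for 79 of the 83, in H1315 for 58, in H828 for 20 and in H817 for 1. As a share of all scaled reads, the 83 genes together took 1.86, 2.12, 2 and 2.06% in the Low AA mice and 1.70, 1.86, 1.26 and 1.56% in the Control mice, with H1126 and F2212 at the same share.

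**Figure D2:**
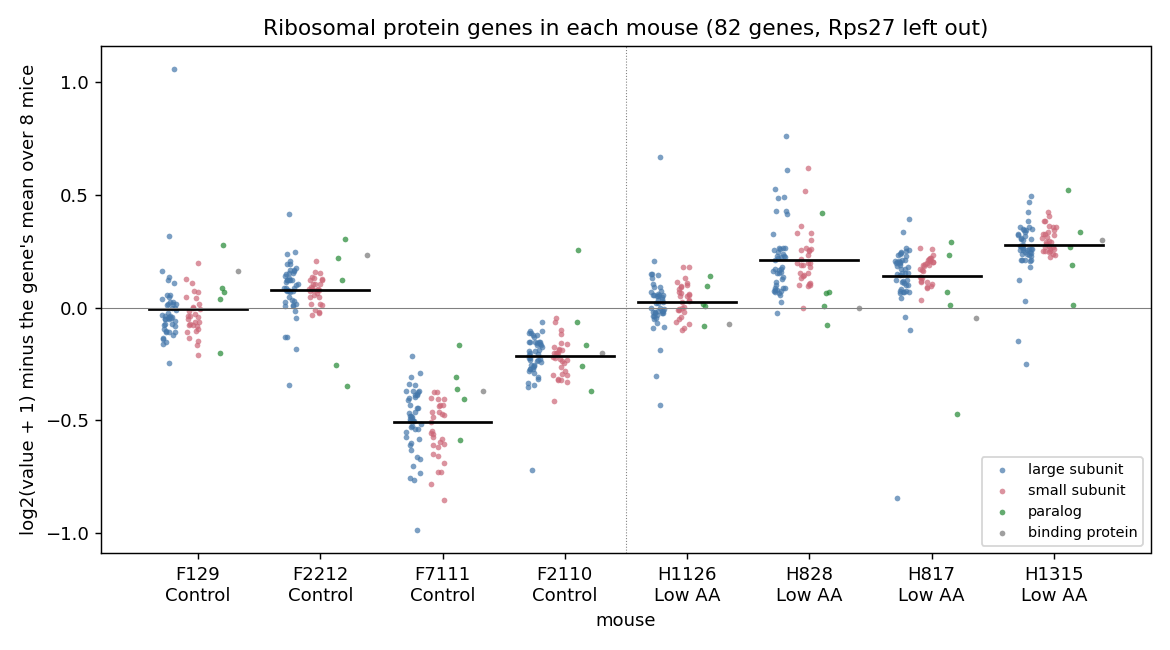
Each point is 1 gene in 1 mouse, as log2(value + 1) minus the mean of that gene over the 8 mice, coloured by class, and the black bar is the mean of the 82 genes drawn. Rps27, which spans a wider range than the axis, is left out. The points of Control mouse F7111 lie around -0.50 and those of Low AA mouse H1315 around 0.27.

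The sequence around the start of transcription is shown for the gene that was called, for its parent and for 3 genes whose diets did not overlap, because the pyrimidine tract of such messages begins at their first base. The windows hold 60 bases before the annotated start and 20 from it on, in the direction of transcription, from RefSeq on build GRCm38.p6. Capitals mark a pyrimidine run, defined as a C followed by at least 7 bases that are each C or T. The windows were chr3:28805448-28805527 for Rpl22l1, chr4:152324376-152324455 and chr4:152325666-152325745 for the 2 annotated starts of Rpl22, chr2:32961652-32961731 for Rpl12, chr9:64173327-64173406 for Rpl4 and chr9:120127706-120127785 for Rpsa, all on the plus strand.
Rpl22l1: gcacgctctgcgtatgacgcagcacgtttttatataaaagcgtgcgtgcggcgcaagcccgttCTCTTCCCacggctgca
Rpl22, start 1: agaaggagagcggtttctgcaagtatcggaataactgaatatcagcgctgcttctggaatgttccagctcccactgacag
Rpl22, start 2: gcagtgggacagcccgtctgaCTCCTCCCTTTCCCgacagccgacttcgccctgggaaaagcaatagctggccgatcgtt
Rpl12: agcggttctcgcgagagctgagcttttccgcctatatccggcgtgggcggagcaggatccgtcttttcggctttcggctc
Rpl4: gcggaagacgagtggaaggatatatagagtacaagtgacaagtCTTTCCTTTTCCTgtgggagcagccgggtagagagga
Rpsa: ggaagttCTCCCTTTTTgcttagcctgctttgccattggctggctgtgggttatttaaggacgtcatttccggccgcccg
A run was present in the window of 39 of the 62 genes of the group that had one in the reference table (62.9%), against 7573 of all 27025 genes (28%). The ETS-like word CCGGAAG on either strand was in 14 of the 62 (22.6%, against 5.47% of all genes). A TATA-like word (TATAAA or TATATA, only in the direction of transcription, as the windows are printed) was in 6 (9.68%, against 5.46%). The 21 genes without a window were not searched. Counted from 1 at the left end, the annotated start is base 61 of each window. The run of Rpl22l1 is at bases 64 to 71, inside the annotated transcript, whereas those of Rpl22 (start 2, bases 22 to 35), Rpl4 (bases 44 to 56) and Rpsa (bases 8 to 17) lie before the annotated start and are not part of the annotated message. These matches describe the letters in the windows and were not tested against expression. A run was counted anywhere in a window, so the counts are not counts of TOP motifs. The Rpl12 window holds no run of this length, but has the shorter pyrimidine stretch tcttttc just inside its annotated transcript.

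Rpl22l1, a paralog of Rpl22 whose product can take the place of Rpl22 in the large subunit and which binds RNA outside the ribosome, was the gene called. It was counted at 1049, 1275, 1164 and 1203 in the Low AA mice and at 829, 797, 741 and 737 in the Control mice. All 4 Low AA mice were above all 4 Control mice, and the Control mice lay close together. The means were 1173 ± 94.4 and 776 ± 44.7 (SD, n = 4), a rise of 50.9% or 0.59 ± 0.10 on the log2 scale (SE, limma adjusted p = 0.0368). Its Control value in F7111 (741) was within the range of the other Control mice, unlike most genes of the group. The call sat near the threshold: with 1 mouse left out the difference stayed between 0.55 and 0.65, and the adjusted p lay between 0.0386 (without F2212) and 0.138 (without H817) and was under 0.05 only without F2212.

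Rpl3, which lies at the peptidyl transferase centre of the large subunit, was the nearest gene above the threshold. Its values were 13378, 13152, 13815 and 15151 on the Low AA diet and 10360, 10212, 8282 and 10195 on the Control diet. The diets did not overlap, and 3 of the Control mice agreed closely while F7111 was lower. The difference was 0.51 ± 0.10 (limma adjusted p = 0.0793).

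Among the proteins of the P stalk, the flexible arm of the large subunit that recruits and activates the translation factors, and its base, all 4 genes were positive and 3 had an unadjusted p under 0.05. Rpl12, at the stalk base, was counted at 5466, 7201, 6313 and 6044 against 4630, 4568, 2961 and 4135. No Control mouse reached the lowest Low AA mouse, and the difference was 0.63 ± 0.15 (limma adjusted p = 0.122). Rplp0, which anchors the stalk, was at 14162, 17192, 15994 and 19898 against 13374, 13933, 10404 and 12208, again without overlap but with H1126 only just above F2212 (difference 0.43 ± 0.13, limma adjusted p = 0.22). The 2 acidic stalk proteins overlapped between diets: Rplp1 differed by 0.43 ± 0.17 and Rplp2 by 0.20 ± 0.17. Rplp2 had its lowest Low AA value, 2278 in H1126, below 3 of the 4 Control mice.

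Rpl5 and Rpl11, which carry the 5S ribosomal RNA into the large subunit and hold the p53 regulator MDM2 when ribosome assembly fails, had modest differences. Rpl5 was at 13407, 14409, 14759 and 15359 against 12112, 12985, 9802 and 11572, without overlap (0.32 ± 0.11, limma adjusted p = 0.258). Rpl11 overlapped, with F2212 at 7787 above 3 Low AA mice (0.20 ± 0.13, limma adjusted p = 0.613, with a difference of 0.11 without F7111).

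Of the 9 proteins around the exit tunnel, through which the new chain leaves, all were positive with a median of 0.35, and 6 had an unadjusted p under 0.05. Without F7111 their mean difference was 0.20, against 0.32 with all mice. Rpl4, which reaches into the tunnel wall, was at 18254, 19889, 19569 and 19230 against 15752, 15480, 13863 and 14868. The 2 diets were well apart and each varied little, so that a difference of 0.36 had an SE of 0.09 (limma adjusted p = 0.131). Rpl39, a very small protein inside the tunnel, was at 2887, 3480, 3314 and 3525 against 2768, 2789, 1740 and 2230, where H1126 was only just above F2212 (0.49 ± 0.15, limma adjusted p = 0.22).

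The largest difference among large subunit genes was that of Rpl34, at 2028, 2795, 2152 and 2578 against 1542, 2175, 1078 and 1112. Control mouse F2212 was above H1126 and H817, and the difference was 0.74 ± 0.21 (limma adjusted p = 0.188, and 0.0359 without F2212). The table also holds the row Rpl34-ps1, a pseudogene of near-identical sequence, at 1393, 976, 1689 and 1484 against 1776, 1582, 867 and 1652. Reads shared by such copies can be divided unevenly between their rows. When the 2 rows were added, the values were 3421, 3771, 3841 and 4062 against 3318, 3757, 1945 and 2764, the diets overlapped and the difference was 0.40.

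At the other end, Rpl36 was at 1752, 3029, 2017 and 2205 against 2695, 2471, 1525 and 2002, a difference of 0.05 ± 0.20. It was highest in H828, on the Low AA diet, and next highest in 2 Control mice. Rpl26 and Rpl30 had small differences with wide errors (0.17 ± 0.46 and 0.15 ± 0.24), and low values, 38 to 160 for Rpl26 and 105 to 200 for Rpl30. Per kilobase of transcript their means were 164 and 257, against a median of 7570 over the 83 genes, and with Rps19bp1 (250) they were the 3 lowest. Whether reads of Rpl26 and Rpl30 were lost to similar sequences elsewhere was not tested. The highest per kilobase were Rpl10 (19841), which helps to form the site where transfer RNAs enter the large subunit, Rps18 (17356) and Rps2 (15812). Rpl10 overlapped between diets, with F2212 at 17358 above H1126 and H817 (0.30 ± 0.13, limma adjusted p = 0.416).

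In the small subunit the largest difference was that of Rps27, and it was also the least certain. Its values were 469, 501, 552 and 301 against 1298, 29, 287 and 252. The Control mice ranged from far below to far above the Low AA mice. The mean log2 difference was 0.95 ± 0.87 (limma adjusted p = 0.747), while the plain means went the other way, 456 ± 109 against 466 ± 566 (SD, n = 4), and without F2212 the log2 difference was -0.03. A near-identical gene, listed as Gm9846 (current symbol Rps27rt), was at 4290, 4919, 4861 and 5500 against 4227, 5843, 3317 and 4361. The sum of both rows was 4759, 5420, 5413 and 5801 against 5525, 5872, 3604 and 4613, with a difference of 0.15, so that the value of Rps27 alone is uncertain.

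Rps12, a small protein of the head of the small subunit, was at 6326, 7981, 6696 and 6686 against 5594, 5451, 3245 and 4187. The diets did not overlap (0.61 ± 0.17, limma adjusted p = 0.171). Rps4x, the X-linked form of the RNA-binding protein Rps4, was at 11641, 11414, 12085 and 13387 against 8861, 10739, 7392 and 8161, likewise without overlap (0.48 ± 0.12, limma adjusted p = 0.146, and 0.0497 without F2212). Rpsa, a protein of the platform side also known as the laminin receptor, was at 16658, 17616, 17906 and 20136 against 13775, 15200, 11197 and 13011. It did not overlap either (0.45 ± 0.12, limma adjusted p = 0.146).

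Rps6, the substrate of the S6 kinases downstream of mTORC1, was at 12079, 13304, 13325 and 14737 against 10781, 11697, 8591 and 9664. H1126 was just above F2212 and the diets did not overlap (0.40 ± 0.12, limma adjusted p = 0.196). The 8 genes with Rps6k symbols, left out of the group, had a median difference of -0.05, with 3 positive and 0 called. They were taken by symbol and were not limited to the S6 kinases downstream of mTORC1. The largest rise among them was Rps6ka1 at 0.19 and the largest fall Rps6ka5 at -0.44, neither called. Rps6kb1, which encodes the S6 kinase that phosphorylates Rps6, was at 786, 843, 822 and 749 against 720, 662, 1008 and 732, and overlapped.

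Rps27a is made as a fusion to ubiquitin and Fau as a fusion to a ubiquitin-like domain. Rps27a was at 7464, 9021, 8613 and 9118 against 7780, 8124, 5172 and 6149 (0.35 ± 0.15, limma adjusted p = 0.395). Fau, which carries Rps30, was at 4953, 5130, 5484 and 6290 against 5152, 6421, 4219 and 5413, a difference of 0.05 ± 0.14 with the highest value in Control mouse F2212. Both overlapped between diets. Rack1, a scaffold on the head of the small subunit, was at 11272, 13076, 12734 and 13204 against 10009, 10388, 7927 and 9273 (0.42 ± 0.11, limma adjusted p = 0.146) and did not overlap.

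**Figure D3:**
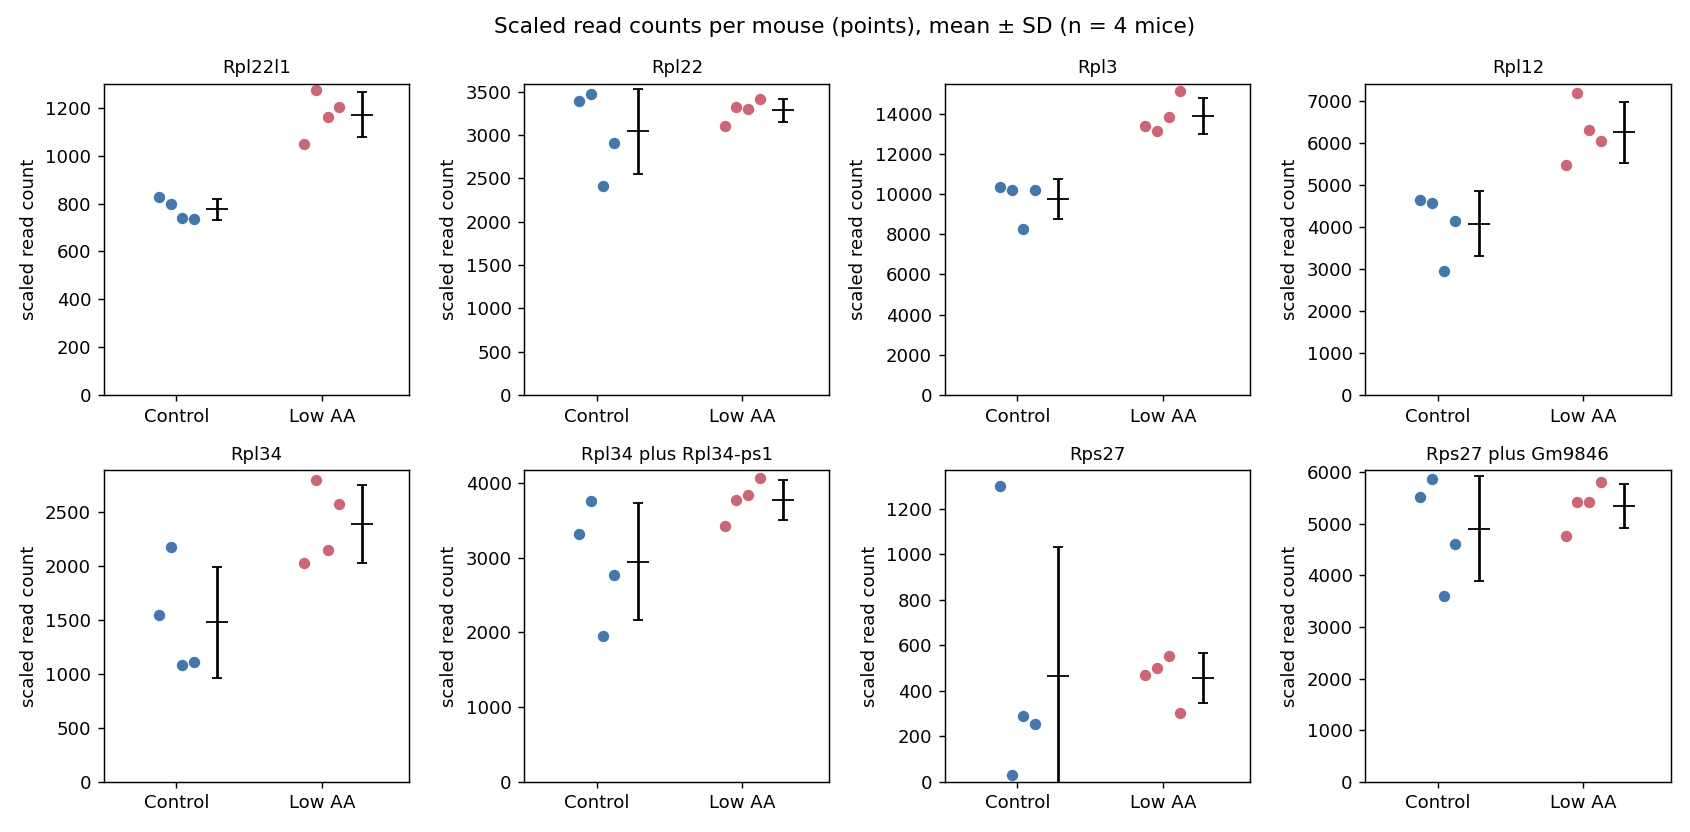
Scaled read counts per mouse (points) with mean ± SD (n = 4 mice) for 6 genes and for 2 sums of a gene and its near-identical copy, each panel on its own axis from 0. Rpl22l1, Rpl3 and Rpl12 do not overlap between diets, and the lower error bar of Rps27 on the Control diet is cut by the axis.

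Large and small subunit genes differed little from each other. The median difference was 0.31 over the 46 large subunit genes and 0.36 over the 31 small subunit genes, and an unadjusted p under 0.05 was seen in 24 and 21 of them. Without F7111 the medians were 0.20 and 0.24. Within the small subunit, the 15 proteins of the head had a median of 0.36 and the 18 of the body and platform, with Fau, a median of 0.38. Per mouse, the mean of the large minus that of the small subunit genes was -0.032, -0.013, -0.051 and -0.032 in the Low AA mice and -0.037, 0.120, 0.036 and 0.010 in the Control mice, a difference of -0.064 between diets. The value of 0.120 in F2212 rested on Rps27. Without Rps27, a step chosen after its values were seen, the balance was -0.016, 0.001, -0.031 and -0.045 against 0.029, 0.008, 0.049 and 0.006. The diets then did not overlap, by a gap of a few thousandths, and differed by -0.045, which is small beside the shift of both subunits.

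The 5 paralogs had a median difference of 0.13. Their mean difference was 0.21, and 0.13 without F7111. To compare each with its parent independently of the scaling of a mouse, the log2 ratio of the 2 genes was taken within each mouse. Rpl22l1 relative to Rpl22 was at -1.56, -1.38, -1.50 and -1.51 in the Low AA mice and at -2.03, -2.12, -1.70 and -1.98 in the Control mice. The ratio was higher in every Low AA mouse, by 0.47 (p = 0.0286 in a two-sided exact permutation test, where 4 against 4 mice allow no smaller value), and Benjamini-Hochberg adjustment over the 6 ratios examined gave 0.114. Rpl22 itself was at 3105, 3319, 3297 and 3419 against 3392, 3470, 2409 and 2909 (0.12 ± 0.12, with a difference of 0.02 without F7111). Per kilobase, the mean of Rpl22l1 was 114% of that of Rpl22.

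The ratios of the other paralogs were lower on the Low AA diet or uncertain, and none passed the adjustment. Rpl7l1, an assembly factor related to Rpl7, was at 1749, 1652, 2043 and 1757 against 1787, 1892, 1549 and 1551, and its ratio to Rpl7 fell by 0.21 in the mean (exact permutation test, two-sided, p = 0.0571, adjusted p = 0.114). Rpl7 was at 11090, 11604, 12035 and 12514 against 10209, 10865, 8193 and 9240, without overlap. Rpl36al was at 3053, 3382, 3254 and 3889 against 3432, 3766, 2609 and 2696, and its ratio to Rpl36a, which differed by 0.36 ± 0.15, was -0.23 (exact permutation test, two-sided, p = 0.0571, adjusted p = 0.114). In both pairs the ratios overlapped between diets.

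Rps4y2, whose current symbol is Rps4l, was at 309, 303, 208 and 415 against 350, 227, 218 and 345, 3.51% of Rps4x per kilobase, and the ratio of the pair differed by -0.37 (exact permutation test, two-sided, p = 0.229, adjusted p = 0.343). Rps27l, a p53-responsive paralog of Rps27, was at 2439, 2425, 2530 and 2752 against 2533, 2986, 1606 and 2312 (0.14 ± 0.17). The ratios of Rps27l and of Gm9846 to Rps27 differed by -0.81 and -0.78, carried the uncertainty of the Rps27 row and had adjusted p of 0.657 in the exact permutation test. Rps19bp1, the binding protein, was at 197, 207, 201 and 255 against 232, 244, 160 and 180 (0.09 ± 0.16).

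Ribosomal protein messages are short, and the amount of short messages varied between the libraries. The median transcript length was 757 bases for the 83 genes and 2800 for all genes, and 70 of the 83 lay in the shortest eighth of transcripts (up to 1252 bases). The 1389 other genes of that eighth had means per mouse of -0.07, -0.13, -0.04 and 0.11 in the Low AA mice and 0.11, 0.27, -0.20 and -0.03 in the Control mice, a difference of -0.07, opposite in sign to that of the ribosomal protein genes. Within each diet, the mouse highest in short transcripts (H1315, F2212) was also highest in ribosomal protein genes, and F7111 was lowest in both. The other Low AA mice did not keep the same order. H828 was lowest of that diet in short transcripts (-0.13), but in ribosomal protein genes it was at 0.22, above H817 (0.15) and H1126 (0.03).

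When a smooth trend on transcript length and GC content was removed from each mouse, the ribosomal protein genes stood further apart between diets. Their means became 0.08, 0.33, 0.16 and 0.16 in the Low AA mice and -0.08, -0.21, -0.28 and -0.16 in the Control mice. Every Low AA mouse was above 0 and every Control mouse below, and F7111 was closer to the other Control mice. The median difference was 0.36, and without F7111 the difference of the means was 0.34. In this fit 23 of the 83 genes were called higher (27.7%, against 0.669% of 11666 genes) and 0 lower (0.617% of genes): 13 of the large subunit, 9 of the small subunit and Rpl22l1. Among them were Rpl3 (0.55, limma adjusted p = 0.016), Rpsa (0.52, limma adjusted p = 0.0164), Rps4x (0.49, limma adjusted p = 0.0167) and Rps6 (0.42, limma adjusted p = 0.0315). The count of called ribosomal protein genes thus depended on this correction, 1 without it and 23 with it, whereas the sign of the difference was the same for all 83.

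**Figure D4:**
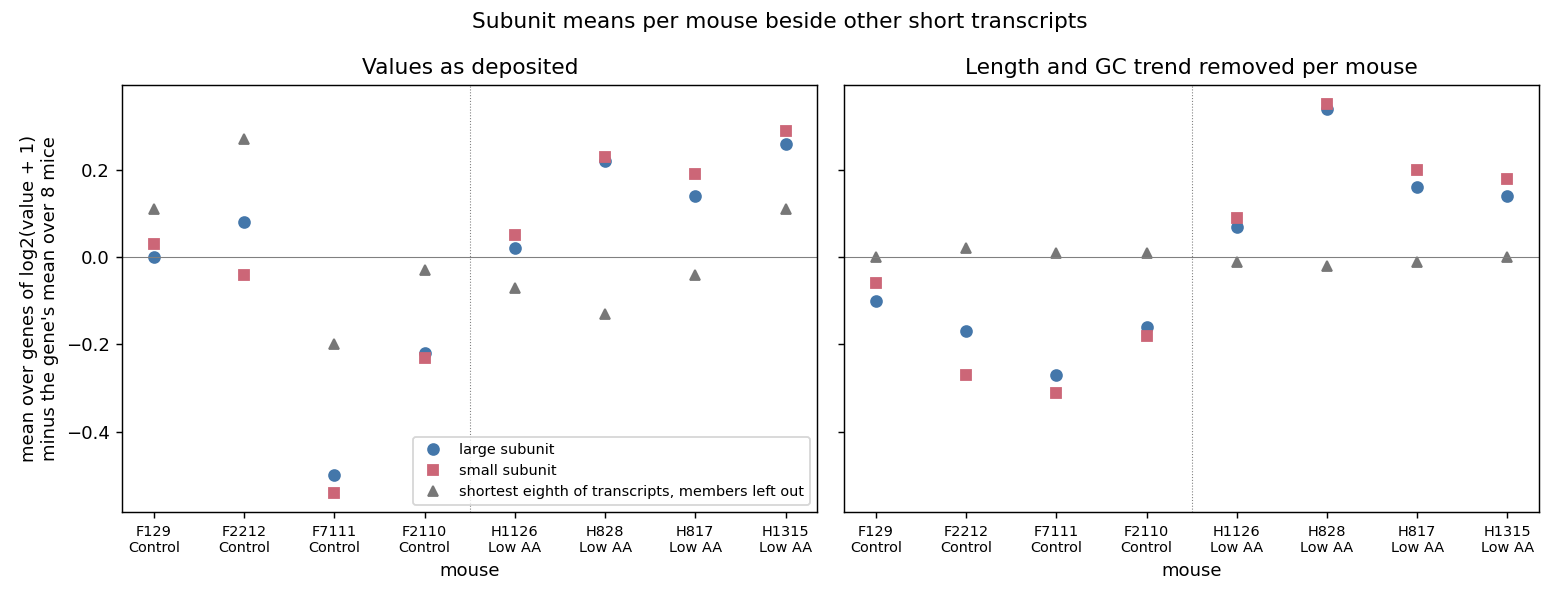
Mean over genes of log2(value + 1) relative to each gene's mean over the 8 mice, for large subunit genes, small subunit genes and the 1389 other genes with transcripts of up to 1252 bases, per mouse. On the left, values as deposited, where Control mouse F7111 lies at or below -0.50 for both subunits. On the right, after removal of the trend on length and GC, all Low AA points of both subunits lie above 0 and all Control points below.

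Within the 77 core genes, the size of the difference had little relation to the properties of the gene. Spearman's rho across genes was 0.14 with transcript length, -0.14 with GC content and 0.23 with mean value. These are descriptions across genes, which are not independent. The 83 genes lie on 19 chromosomes.

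Other genes of the translation machinery were set beside the ribosomal proteins. Of 18 further genes with TOP messages, mostly translation factors, 16 were positive with a median of 0.17, 5 had an unadjusted p under 0.05 and 0 were called. The mean difference of the 18 was 0.19, and 0.15 without F7111. Tpt1, which encodes the translationally controlled tumour protein, was at 39445, 42456, 41496 and 44602 against 32858, 34036, 24440 and 29133 (0.49 ± 0.12, limma adjusted p = 0.135). Eef1a1, the elongation factor that delivers aminoacyl-tRNA, was at 181644, 188235, 192546 and 204479 against 152134, 163128, 148246 and 166742 (0.28 ± 0.11, limma adjusted p = 0.358). Neither overlapped between diets. The largest rise in this list was Hnrnpa1 (0.53 ± 0.18) and the largest fall Nap1l1 (-0.15 ± 0.14).

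The genes that build ribosomes had a median difference of 0.09, against 0.32 for those that encode ribosomal proteins. This contrast was smaller without F7111: the difference of the means was then 0.09 against 0.22, and 0.09 against 0.33 with all mice. Of 90 ribosome biogenesis factors, 70 were positive, 8 had an unadjusted p under 0.05 and 0 were called. Their extremes were Rrp12, which exports pre-ribosomes, at 0.42 ± 0.17 and Znhit3 at -0.20 ± 0.20. The nucleolar proteins Npm1 and Ncl both differed by 0.08, within their SE of 0.11 and 0.10. For RNA polymerase I and its factors, which make the ribosomal RNA, 10 of 14 genes were positive with a median of 0.12, between Taf1c at 0.34 ± 0.23 and Taf1b at -0.10 ± 0.17. Host genes of small nucleolar RNAs, many of which also have TOP messages, had a median of -0.02 with 5 of 12 positive, and Snhg3 stood out at 279, 324, 323 and 260 against 233, 210, 138 and 165 (0.69 ± 0.17, limma adjusted p = 0.135).

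The ribosomal proteins of mitochondria, which serve a separate ribosome and are encoded in the nucleus, were centred near 0. Of 76 genes 40 were positive, the median was 0.01, and 1 was higher and 2 were lower at an unadjusted p under 0.05. The extremes were Mrpl23 at 0.31 ± 0.18 and Mrpl38 at -0.30 ± 0.13, and 0 were called. Among 17 regulators of ribosomal protein messages, 13 were positive with a median of 0.05 and 0 were called. Larp1, which binds TOP messages, was at 4769, 4866, 5156 and 4507 against 4161, 3779, 5545 and 4473 (0.12 ± 0.12), and the largest rise was its relative Larp4 (0.29 ± 0.20). The largest fall was Eif4ebp1, an mTORC1 substrate that blocks cap-dependent translation, at 678, 706, 712 and 846 against 941, 1077, 753 and 922 (-0.32 ± 0.13, limma adjusted p = 0.347).

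**Figure D5:**
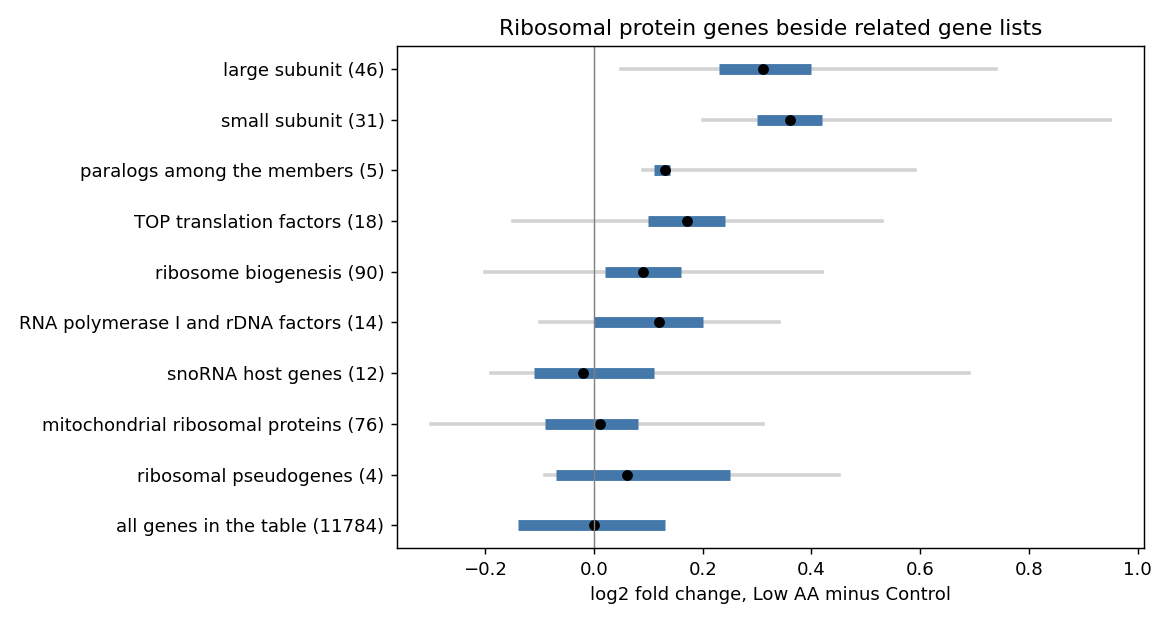
Median (point), interquartile range (thick bar) and full range (thin line) of the difference in log2(value + 1), Low AA minus Control, for the ribosomal protein genes by class and for the other gene lists, with the number of genes in brackets. The range of all genes is not drawn. The subunits have medians of 0.31 and 0.36, the other lists between -0.02 and 0.17, and all genes 0.00.

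Markers of other cells of the liver were read in the same way, since a bulk sample cannot tell more cells of a type from more RNA per cell. The 11 macrophage markers in the table were all positive with a median of 0.20, and their means per mouse were 0.24, -0.12, 0.08 and 0.25 against -0.10, 0.33, -0.41 and -0.26. The difference of these means was 0.22, and 0.12 without F7111. Their summed level was between 11898 and 16295 on the Low AA diet and between 10640 and 17053 on the Control diet, highest in F2212 and lowest in F7111. Of 13 lymphocyte markers 5 were in the table, with a median of 0.09 and sums of 403 to 565 against 310 to 661, and the T and B cell genes Cd3d, Cd3e, Cd3g and Ms4a1 had no row. The part of these cells in the ribosomal protein result was not tested.

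The other marker lists had medians of 0.03 for hepatocytes, 0.06 for endothelial cells, -0.31 for stellate cells and fibroblasts, -0.62 for cholangiocytes, -0.49 for erythroid cells and 0.03 for proliferation, with 0 genes called in any of them. Cela1 was the 1 acinar marker of 10 in the table. Without F2212, the mouse with high Cela1, the median over the 83 ribosomal protein genes was 0.40, 82 were positive, and 3 were called (Rpl22l1, Rpl34 and Rps4x).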

How the data were processed

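Liver poly(A) RNA of 8 mice was sequenced from stranded TruSeq libraries, 4 mice per diet. The submitters' processing notes name bcl2fastq 1.8.2, STAR 2.5.0a, RSEM 1.2.6, edgeR 3.10.5, R 3.2.1 and build mm10, without settings. The deposited signal is a scaled, rounded read count per gene and mouse. How it was scaled, and how genes were selected for the table, is not given in the sources used here, and raw depth per mouse is unknown. The authors also deposited a signed fold change score and an FDR, a q-value, from their own comparison, which were not used.

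Values were tested as log2(value + 1), a scale that understates the change of low genes, with limma 3.58.1 in R 4.3.3, a mean-variance trend, no covariates, and Benjamini-Hochberg adjustment over all 11784 genes at 0.05. No gene was filtered out. Ratios of paralog to parent were compared by exact permutation tests (scipy 1.17.1). The mouse was the replicate. The fit was tested on simulated data with 200 changed genes at each size of change, of random sign, and the same dispersion for every gene. Transcript length and GC content came from GENCODE (principal isoform of median length) for 11666 genes, and the trend per mouse was a natural spline with 5 degrees of freedom for each. Read assignment between near-identical genes and their pseudogenes is uncertain.

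Members and gene lists were chosen with earlier results of these data known. Named genes were those called, the 5 largest differences of either sign, paralogs with parents, stalk and 5S proteins, Rps6, Rpsa, Rps27a, Fau and Rack1, the 3 highest and 3 lowest per kilobase, and the genes nearest the threshold, and from each list the called genes and the extremes. Rpl4, Larp1, Npm1, Ncl, Tpt1, Eef1a1, Rps6kb1 and the start-site windows were chosen after their values were seen. Alternatives were other pseudocounts (0.1 or 5), a table cut to the 8000 highest means, equal column totals, TMM factors, no mean-variance trend, robust moderation, removal of the length and GC trend, and each mouse left out in turn. Figures were drawn with matplotlib 3.10.9.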

Additional observations from a re-analysis of the deposited data

Results flagged for a closer look

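In 80 groups of 4 mice examined (a gene or a ratio on 1 diet), 2 had a mouse whose gap to the nearest other mouse was above Dixon's 95% critical share of the group's whole range, and chance alone gives about 1 such group in 20. For Rpl3 on the Control diet, the gap of mouse F7111 was 0.928 of the range: its log2 value was 13.02, against 13.32 to 13.34 in the other 3 mice. F7111 was the lowest mouse for 79 of the 83 ribosomal protein genes, and for Rpl3 the other Control mice happened to lie very close together. For the ratio of Gm9846 to Rps27 on the Low AA diet, the gap of mouse H1315 was 0.851 of the range: its log2 ratio was 4.19, against 3.14 to 3.29. The read division between these near-identical genes is uncertain, and its part in this value was not tested.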

How the results depend on the processing

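The positive sign of the ribosomal protein genes did not depend on pseudocount, scaling (equal totals or TMM), moderation or the length and GC trend, each with 83 of 83 positive, nor on keeping the 8000 genes with the highest mean (80 of the 80 that remained), and lay between 78 and 83 with a mouse left out. The count of ribosomal protein genes called higher was 1 as designed, 0 without a mean-variance trend, 23 with the length and GC trend removed, and 0 to 3 with a mouse left out. None was called lower in any of these. Over all genes 47 were called, 19 among the 8000 with the highest mean, 30 without a mean-variance trend, 150 with the length and GC trend removed, and 16 to 77 with a mouse left out. Rpl22l1 lost its call without a mean-variance trend (adjusted p = 0.0638) and in 7 of 8 fits with a mouse left out, and robust moderation, pseudocounts and scaling kept it. The cause was not tested.

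With a mouse left out, the diet difference in the log2 ratio of Rps27l to Rps27 ran from -1.60 to 0.30. That of Gm9846 to Rps27 ran from -1.63 to 0.34, and both were reversed without F2212. Single genes that changed sign with a mouse left out were Rpl26 (-0.13 to 0.55, negative without H1126, H828 or F7111), Rpl36 (-0.11 to 0.17, without H828 or F7111), Rps4y2 (-0.05 to 0.28, without H1315 or F7111), Rps19bp1 (-0.02 to 0.18) and Rps27l (-0.04 to 0.26), both without F7111, and Rps27 (-0.03 to 1.78, without F2212). No paired analysis was possible because the mouse codes are not shared between the diets. Raw depth is unknown, and a value that was not called is not shown to be unchanged. Adding the rows Gm9846 and Rpl34-ps1 to Rps27 and Rpl34 was chosen after seeing the data.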

Other observations

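The 4 ribosomal pseudogene rows left out of the group had values of their own. Rpl31-ps12 was at 167, 138, 145 and 182 in the Low AA mice and at 123, 124, 90 and 127 in the Control mice, without overlap, a difference of 0.45 ± 0.16 (limma adjusted p = 0.284). Rpl34-ps1 differed by -0.06 ± 0.24 and Rplp2-ps1, at 16 to 38 in all mice, by -0.09 ± 0.31. Added to their parent genes, the pseudogene rows left the differences of Rpl31 at 0.36, Rps15a at 0.38 and Rplp2 at 0.20, against 0.35, 0.39 and 0.20 for the genes alone.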
